A study of Homo sapiens with 9 samples.

Results

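Long intergenic non-coding RNA (lincRNA) genes were examined in KHM-5M cells, an established human thyroid cancer cell line, after treatment with YK-4-279. Of 58735 genes in the count table, 7629 were annotated as lincRNA and 7618 of these remained once MALAT1, NEAT1, GAS5 and the small nucleolar RNA host genes named SNHG were set aside. The 200 with the highest mean read count in DMSO-treated cells are described here. At least 1 read in DMSO was found for 2756 of the 7618 genes. The choice used only the level in DMSO, so that level is given as a description. Cells received DMSO, YK-4-279 at 0.3 μM or YK-4-279 at 1 μM for 24 h, and each of the 3 groups had 3 samples. No allele or other agent was named in the labels, and 1 cell line served as the model throughout. YK-4-279 is a small molecule known for blocking the partnership of ETS family transcription factors with RNA helicase A.

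LincRNA genes lie between protein-coding genes and are transcribed by RNA polymerase II, mostly into capped, spliced and polyadenylated RNA. Many of the transcripts stay in the nucleus, and the nuclear exosome removes a large part of them, so that their steady levels are usually low. Some carry a microRNA in an intron or exon, some act as scaffolds for proteins, and for most no function is known.

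MicroRNAs were located within 13 of the 200 genes on the same strand. The mature sequences below are from RefSeq (GRCh38.p14) and belong to the called hosts and to 2 hosts with well-known microRNAs. They are shown because the 7 bases in capitals, positions 2 to 8 from the 5′ end, are the seed by which a microRNA recognises its targets. The read counts below measure the host RNA and not these microRNAs.
hsa-miR-22-3p in MIR22HG: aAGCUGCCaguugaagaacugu
hsa-miR-503-5p in MIR503HG: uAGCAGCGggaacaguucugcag
hsa-miR-570-3p in MUC20-OT1: cGAAAACAgcaauuaccuuugc
hsa-miR-924 in AC016205.1: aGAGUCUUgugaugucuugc
hsa-miR-137-3p in MIR137HG: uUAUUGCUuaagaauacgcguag
hsa-miR-4435 in CYTOR and in MIR4435-2HG: aUGGCCAGagcucacacagagg
hsa-miR-221-3p in MIR222HG: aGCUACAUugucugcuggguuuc
hsa-miR-222-3p in MIR222HG: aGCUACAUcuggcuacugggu
hsa-miR-30a-5p in LINC00472: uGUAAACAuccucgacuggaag
hsa-miR-30c-5p in LINC00472: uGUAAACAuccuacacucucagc
The pair in MIR222HG shared a seed, as did the pair in LINC00472. The same miR-4435 sequence was annotated in CYTOR and in MIR4435-2HG, which are near-identical genes on chromosome 2.

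Promoters of 3 genes are printed because the compound is directed at ETS factors, whose common DNA core is CCGGAA, or TTCCGG on the other strand. Each runs from 250 bases before to 50 bases after the RefSeq start, 5′ to 3′ along the gene's strand, with every core match in capitals. NORAD (chr20:36050911-36051210, minus strand) had 4 matches and was not called in any comparison, HCG27 (chr6:31197510-31197809, plus strand) had 1 match and fell at 1 μM, and MIR503HG (chrX:134546581-134546880, minus strand) had no match and fell at 1 μM.
NORAD: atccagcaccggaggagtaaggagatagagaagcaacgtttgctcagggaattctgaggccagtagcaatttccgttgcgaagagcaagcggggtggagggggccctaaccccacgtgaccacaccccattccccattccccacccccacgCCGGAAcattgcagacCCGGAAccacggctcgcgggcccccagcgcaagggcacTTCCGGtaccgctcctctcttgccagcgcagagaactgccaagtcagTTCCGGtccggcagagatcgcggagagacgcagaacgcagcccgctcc
HCG27: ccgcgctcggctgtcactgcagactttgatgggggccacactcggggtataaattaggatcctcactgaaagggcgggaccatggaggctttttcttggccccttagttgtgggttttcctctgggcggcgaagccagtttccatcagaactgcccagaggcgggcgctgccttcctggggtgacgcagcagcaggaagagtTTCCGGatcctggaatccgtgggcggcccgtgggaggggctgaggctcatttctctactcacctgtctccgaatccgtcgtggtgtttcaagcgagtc
MIR503HG: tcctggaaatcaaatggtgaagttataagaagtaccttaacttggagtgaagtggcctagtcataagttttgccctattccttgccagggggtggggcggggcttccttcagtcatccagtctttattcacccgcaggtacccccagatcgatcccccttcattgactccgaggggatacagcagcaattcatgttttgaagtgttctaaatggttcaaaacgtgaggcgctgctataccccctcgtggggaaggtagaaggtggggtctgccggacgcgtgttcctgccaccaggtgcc

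Each library held between 16903251 and 18238884 reads assigned to genes. The thyroid transcription factor PAX8 had 2742 to 3660 reads per sample, whereas thyroglobulin (TG), a marker of differentiated thyroid cells, had 0 to 4. Epithelial markers were uneven: KRT8 had at least 22002 reads, whereas KRT19 had 66 to 104, EPCAM 89 to 126 and CDH1 0 to 5. Mesenchymal VIM had at least 39355 reads and the fibroblast collagen gene COL1A1 5579 to 9593, while the leukocyte marker PTPRC had 1 at most. A count of 0 allows up to 3 reads, 0.165 to 0.178 counts per 1e6 reads, and covers counting error only. All of these counts come from bulk RNA, in which a change in some cells and a smaller change in every cell cannot be told apart.

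Together the 200 lincRNA genes took a small part of the reads. They held 0.230%, 0.247% and 0.233% of all counts in the DMSO samples, 0.222%, 0.235% and 0.229% at 0.3 μM, and 0.220%, 0.207% and 0.217% at 1 μM. The 3 samples at 1 μM lay below the 3 samples of each other group. The mean share was 0.236% ± 0.0091 (SD, n = 3) in DMSO and 0.215% ± 0.0067 (SD, n = 3) at 1 μM, a ratio of 0.909. NORAD alone gave a large part of each share, but not of the difference between groups. Without NORAD the mean shares were 0.174% in DMSO, 0.167% at 0.3 μM and 0.154% at 1 μM, and the ratio of 1 μM to DMSO was 0.883. Within all lincRNA reads, with MALAT1, NEAT1 and the other excluded genes counted, the share of the 200 was 62.8% ± 0.79 (SD, n = 3) in DMSO and 68.3% ± 0.965 (SD, n = 3) at 1 μM. The share of all counts was thus lower at 1 μM, and the share of lincRNA counts higher.

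Levels in DMSO spanned a wide range. Mean counts ran from 44.3 to 10738, with a median of 84.0. On the scale of FPKM, fragments per kilobase of transcript scaled to library size, which allows genes of different length to be compared, the median level was 2.14 and 163 genes reached at least 1. NORAD was highest at 114.7 ± 10.2 FPKM (SD, n = 3), followed among the 10 genes with most reads by AL161431.1 at 21.6 ± 3.59 and LINC00958 at 10.7 ± 0.39. FTX was lowest at 0.185 ± 0.042 FPKM, since its reads were spread over 28487 bases. The median coefficient of variation among the DMSO samples was 12.8%. At the edge of the choice, LINC01106 averaged 44.7 reads, MIR137HG, LINC00472 and the first gene left out, LINC02302, all averaged 44.3, and the next, LINC01123 and AL135925.1, averaged 44. The plot of DMSO levels by rank shows the called genes, which were more frequent among the 100 genes with most reads.

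**Figure D1:**
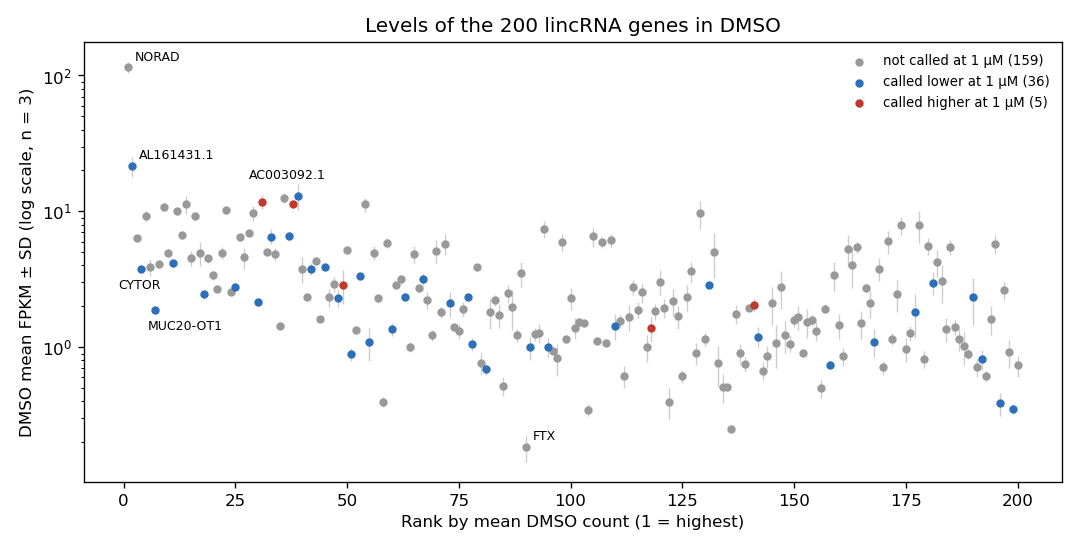
Mean FPKM in DMSO (log axis, bars are SD of 3 samples) against rank by mean DMSO count for the 200 lincRNA genes, coloured by the call at 1 μM against DMSO. NORAD stands apart at 114.7 FPKM, FTX is lowest at 0.185, and 28 of the 41 called genes are among the 100 highest ranks and 13 among the other 100.

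At 1 μM YK-4-279, far more of these lincRNAs were lower than higher. At an adjusted p under 0.05 (edgeR's quasi-likelihood test, Benjamini-Hochberg adjustment over all genes tested), 41 of the 200 genes were called, 36 lower and 5 higher than in DMSO. The share called in either direction was 20.5%, against 17.6% of all 15617 genes tested. The directions differed from that background: 18% of the lincRNAs were lower, against 9.95% of all genes, and 2.5% were higher, against 7.67%. With a change over 1.5-fold also required, 29 lincRNAs (14.5%) were lower, against 4.14% of all genes, and 3 (1.5%) were higher, against 1.37%. The normalized values of the 3 samples at 1 μM lay wholly below those of DMSO for 57 lincRNAs (28.5%), against 16.3% of all genes, and wholly above for 19 (9.5%), against 21.1%; all 41 called genes were among these. The median log2 fold change over the 200 was -0.16, against -0.01 over all genes tested, and 132 of the 200 were below 0. All 200 passed the filter on low counts.

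DESeq2 called 27 of the 200 (5 higher, 22 lower). Leaving out the second or the third 1 μM sample reduced the 41 edgeR calls to 25 (3 higher, 22 lower) or 27 (5 higher, 22 lower). The shares of all genes called in these fits were not counted. Nothing in the labels says that the 3 samples of a group came from separate cultures, so the p-values measure only the spread between these samples.

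The 200 genes were chosen by the samples that serve as reference in this contrast. Comparing 1 μM with 0.3 μM uses no DMSO sample, and there 22 lincRNAs were lower and 5 higher, together 13.5%. Of all 15583 genes tested, 12.6% were called, 6.75% lower and 5.85% higher, beside 11% and 2.5% of the lincRNAs. The median log2 fold change was -0.08 over the 200 and 0.00 over all genes. Of the 27 calls, 23 were also called against DMSO, each in the same direction, although both contrasts use the same 1 μM samples. When the 200 were instead chosen by their counts at 0.3 μM, 186 genes were shared and 38 were called at 1 μM against DMSO, 33 lower and 5 higher, with a median log2 fold change of -0.14. Chosen by their counts at 1 μM, 178 were shared and 31 were called, 26 lower and 5 higher, and the median was -0.05; against 0.3 μM those 200 had a median of -0.01, with 99 of them above 0. The downward median thus depended on which group chose the genes. Without the second 1 μM sample, the 27 calls against 0.3 μM became 15 (2 higher, 13 lower).

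**Figure D2:**
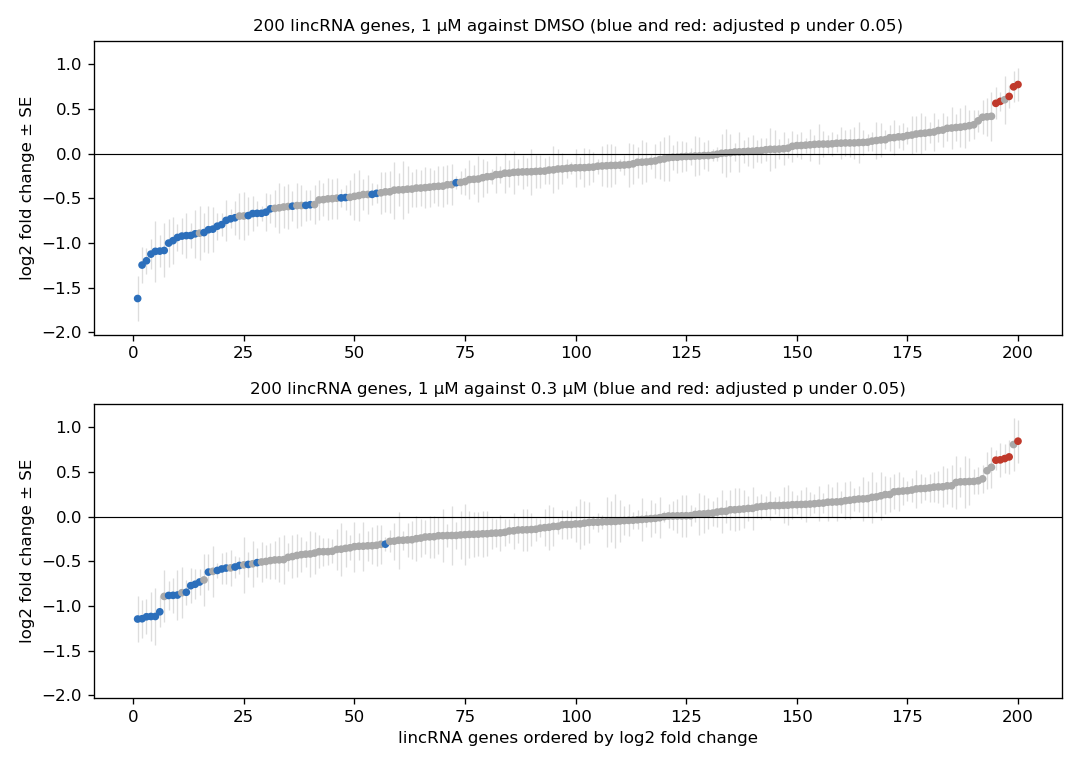
Log2 fold change with its standard error for the 200 lincRNA genes, in increasing order, at 1 μM against DMSO (upper panel) and at 1 μM against 0.3 μM (lower panel); coloured points had an adjusted p under 0.05. Against DMSO the values run from -1.62 to 0.77 with 36 called lower and 5 called higher, and against 0.3 μM from -1.14 to 0.85 with 22 and 5.

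Beside other gene classes, the balance of directions was intermediate. Protein-coding genes were called about equally often in each direction at 1 μM against DMSO, 8.99% lower and 9.13% higher of 12900. The 388 testable lincRNA genes outside the 200 had 25 lower (6.44%) and 1 higher, with a median log2 fold change of -0.18. Of the 200 antisense genes with most reads in DMSO, 69 (34.5%) were called and every one was lower, although 7 were higher at an unadjusted p under 0.05. Precision differed with depth: the 100 lincRNAs with most reads had a median standard error of 0.14 and 28 calls, and the other 100 had a median standard error of 0.23 and 13 calls. The difference between these classes was not tested.

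**Figure D3:**
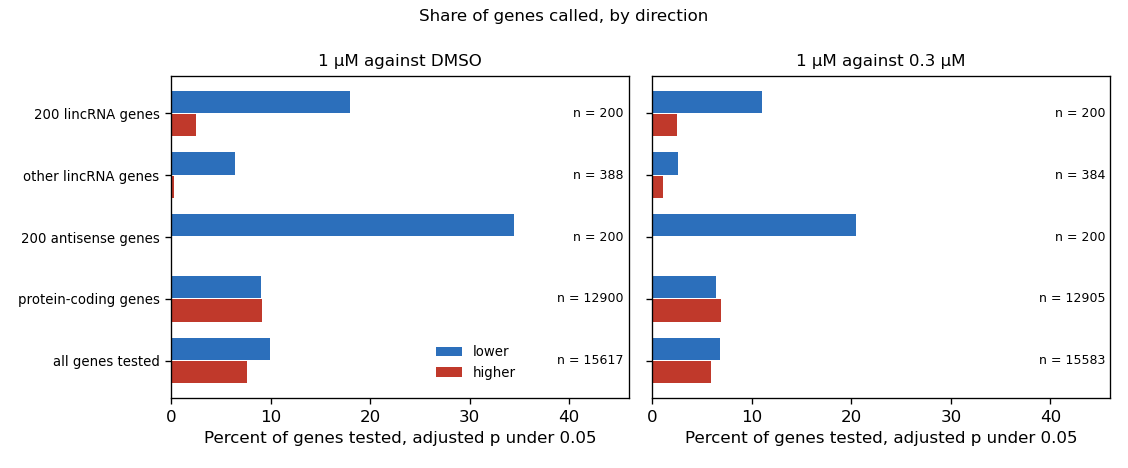
Percent of genes tested with an adjusted p under 0.05, lower (blue) and higher (red), for the 200 lincRNA genes, the other lincRNA genes, 200 antisense genes, protein-coding genes and all genes, at 1 μM against DMSO (left) and against 0.3 μM (right). The 200 lincRNA genes had 18% lower and 2.5% higher against DMSO, beside 9.95% and 7.67% of all genes.

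The largest fall belonged to LINC01238 (ENSG00000237940, chromosome 2, 241970683 to 241977276, 6 exons), a gene of no known function. Its counts were 69, 64 and 47 in DMSO, 41, 42 and 47 at 0.3 μM, and 22, 18 and 19 at 1 μM. The 1 μM samples lay below every other sample, and the level fell to 0.325 of that in DMSO (log2 fold change -1.62 ± 0.26 SE, edgeR adjusted p = 0.000799). LINC01237 overlaps it on the same strand.

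Several other lincRNAs fell to below or near 0.5 of their DMSO level. Counts of AC015813.1 (chromosome 17, 57989039 to 57994850) were 230, 211 and 221 in DMSO, 204, 170 and 172 at 0.3 μM, and 125, 82 and 86 at 1 μM. Its samples fell into 3 bands in the order of dose, and the 1 μM level was 0.435 of DMSO (log2 fold change -1.20 ± 0.15 SE, edgeR adjusted p = 0.000129), the lowest adjusted p of the 200. C2orf48 (chromosome 2, 10141382 to 10211725) had 102, 107 and 98 reads in DMSO, 89, 100 and 104 at 0.3 μM, and 54, 31 and 46 at 1 μM. Here the 0.3 μM samples overlapped DMSO and only 1 μM was lower (log2 fold change -1.25 ± 0.20 SE, edgeR adjusted p = 0.000903). C2orf48 shares its strand with AC007240.1, which overlaps it. AL683813.1, on the X chromosome, had 113, 131 and 129 reads in DMSO, 93, 122 and 116 at 0.3 μM, and 60, 46 and 71 at 1 μM. Its 1 μM samples lay below all others (log2 fold change -1.09 ± 0.18 SE, edgeR adjusted p = 0.00118). LINC00342 counts were 148, 157 and 152 in DMSO, 157, 142 and 115 at 0.3 μM, and 72, 86 and 83 at 1 μM. The fall (log2 fold change -0.94 ± 0.15 SE, edgeR adjusted p = 0.000795) was the same size with AC159540.2 added (-0.95). AC159540.2 was 96.45% identical over 3437 of the 4643 bases of the longest LINC00342 transcript.

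The next large falls rested on fewer reads and depended on single samples. Z68871.1 (log2 fold change -1.10), AL359504.2 (-1.09), RBFADN (-1.0) and AL365181.2 (-0.98) had at most 69 reads in any DMSO sample. RBFADN is transcribed beside RBFA, a gene for a mitochondrial ribosome assembly factor. Counts of RBFADN were 38, 57 and 40 in DMSO, 41, 52 and 34 at 0.3 μM, and 25, 22 and 21 at 1 μM. Its groups at 0 and 1 μM did not overlap, yet the edgeR adjusted p of 0.0184 became 0.0689 without the second DMSO sample. For Z68871.1 the adjusted p of 0.0401 rose as far as 0.163, again without the second DMSO sample, and its log2 fold change was then -0.73. AL359504.2 went from 0.0233 to 0.119 without the first DMSO sample, and AL365181.2 from 0.0203 to 0.0957 without the third. Across the 36 lower genes the log2 fold changes ran from -1.62 to -0.33 with a median of -0.80. For 28 of them the mean at 0.3 μM lay between those of the other groups. The call itself had set the means in DMSO and at 1 μM apart, and no gene was called at 0.3 μM against DMSO. The same share was not counted for all lower genes, so the 28 are a description only.

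Among these genes were several lincRNAs with described roles. CRNDE, a transcript raised in colorectal and other tumours, had 410, 472 and 398 reads in DMSO, 322, 422 and 426 at 0.3 μM, and 313, 225 and 245 at 1 μM. The 1 μM samples lay below all others by normalized value, and the level was 0.603 of DMSO (log2 fold change -0.73 ± 0.11 SE, edgeR adjusted p = 0.000442). CYTOR, a cytoskeleton-linked lincRNA, had 1162, 1273 and 1090 reads in DMSO, 1099, 1197 and 1275 at 0.3 μM, and 1072, 920 and 861 at 1 μM. Its fall was small (log2 fold change -0.33 ± 0.07 SE, edgeR adjusted p = 0.00621) and held in each fit with a sample left out. MIR4435-2HG, a regulator of myeloid cell survival and the copy of CYTOR, had a log2 fold change of -0.13 ± 0.07 SE (edgeR adjusted p = 0.214). The pair was 99.1% identical over 6657 aligned bases, so reads may be divided between them, and their summed reads gave -0.21 ± 0.06 SE (edgeR adjusted p = 0.0197).

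NORAD, which binds Pumilio proteins and guards genome stability, was the most abundant of the 200. Its counts were 9740, 12153 and 10322 in DMSO, 10035, 11366 and 11235 at 0.3 μM, and 11542, 9851 and 10829 at 1 μM. The 3 groups overlapped fully, with a log2 fold change of -0.02 ± 0.07 SE at 1 μM (edgeR adjusted p = 0.89). PVT1, transcribed beside MYC, had 297, 365 and 315 reads in DMSO, 371, 359 and 478 at 0.3 μM, and 384, 368 and 281 at 1 μM. These groups overlapped as well (log2 fold change 0.06 ± 0.11 SE, edgeR adjusted p = 0.757). FTX, a regulator of X inactivation, and HCG11 were not called either, at -0.35 ± 0.22 SE and -0.09 ± 0.08 SE. In the list of well-studied lincRNAs 2 of 6 members, CRNDE and CYTOR, fell (33.3%, beside 9.95% of all genes tested); no gene of the p53-linked list was among the 200.

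The 10 genes with most reads included 3 that fell, beside 9.95% of all genes tested. Precision was higher at such depth: the median standard error was 0.14 in the 100 with most reads and 0.23 in the other 100. AL161431.1 (LINC03061 in GENCODE 44, on chromosome 13) had 2070, 1611 and 2069 reads in DMSO, 1960, 1955 and 2452 at 0.3 μM, and 1425, 1331 and 1387 at 1 μM. All 3 samples at 1 μM were below the other 6, at 0.709 of the DMSO level (log2 fold change -0.50 ± 0.10 SE, edgeR adjusted p = 0.0032). MUC20-OT1 and CYTOR were the other 2. EBLN3P, AC008124.1 and OLMALINC had log2 fold changes of -0.16, -0.23 and -0.26 without passing the test, OLMALINC at an edgeR adjusted p of 0.0531. LINC00958 was at -0.01 ± 0.08 SE.

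Only 5 lincRNAs rose at 1 μM. LINC00973 (chromosome 3, 98981058 to 98983096, 2 exons) had 184, 207 and 183 reads in DMSO, 205, 184 and 181 at 0.3 μM, and 289, 285 and 297 at 1 μM. Its 1 μM samples stood well above the other 6, which were alike (log2 fold change 0.58 ± 0.10 SE, edgeR adjusted p = 0.00166; against 0.3 μM 0.63 ± 0.11 SE, adjusted p = 0.00144). The nearest tested protein-coding gene, DCBLD2, 79369 bases away, rose by a log2 fold change of 0.23 (edgeR adjusted p = 0.00871). AC003092.1 (chromosome 7, 94022833 to 94066661) had 204, 257 and 196 reads in DMSO, 273, 239 and 158 at 0.3 μM, and 409, 277 and 352 at 1 μM. The 1 μM samples were highest (log2 fold change 0.64 ± 0.13 SE, edgeR adjusted p = 0.00417).

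The other 3 rises came from genes that lie opposite an expressed gene. AC009549.1 (NAV2-AS6 in GENCODE 44) had 58, 57 and 66 reads in DMSO, 77, 64 and 59 at 0.3 μM, and 88, 120 and 105 at 1 μM. Its rise (log2 fold change 0.77 ± 0.19 SE, edgeR adjusted p = 0.0121; 0.0631 without the second 1 μM sample) stood beside one of 0.35 in NAV2 (edgeR adjusted p = 0.00253), the neuron navigator gene on the other strand. AC092171.2 had 216, 147 and 130 reads in DMSO, 195, 197 and 209 at 0.3 μM, and 229, 297 and 212 at 1 μM. Raw counts of DMSO and 1 μM overlapped and only the normalized values did not (log2 fold change 0.56 ± 0.18 SE, edgeR adjusted p = 0.0453), and leaving out the second 1 μM sample gave 0.39 with an adjusted p of 0.2. FBXL18 on the other strand had a log2 fold change of 0.27 (edgeR adjusted p = 0.277). MIR22HG is described with the microRNA hosts. Whether the counting used strand is not given in the sources used here, and without strand the reads of such a pair cannot be told apart.

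**Figure D4:**
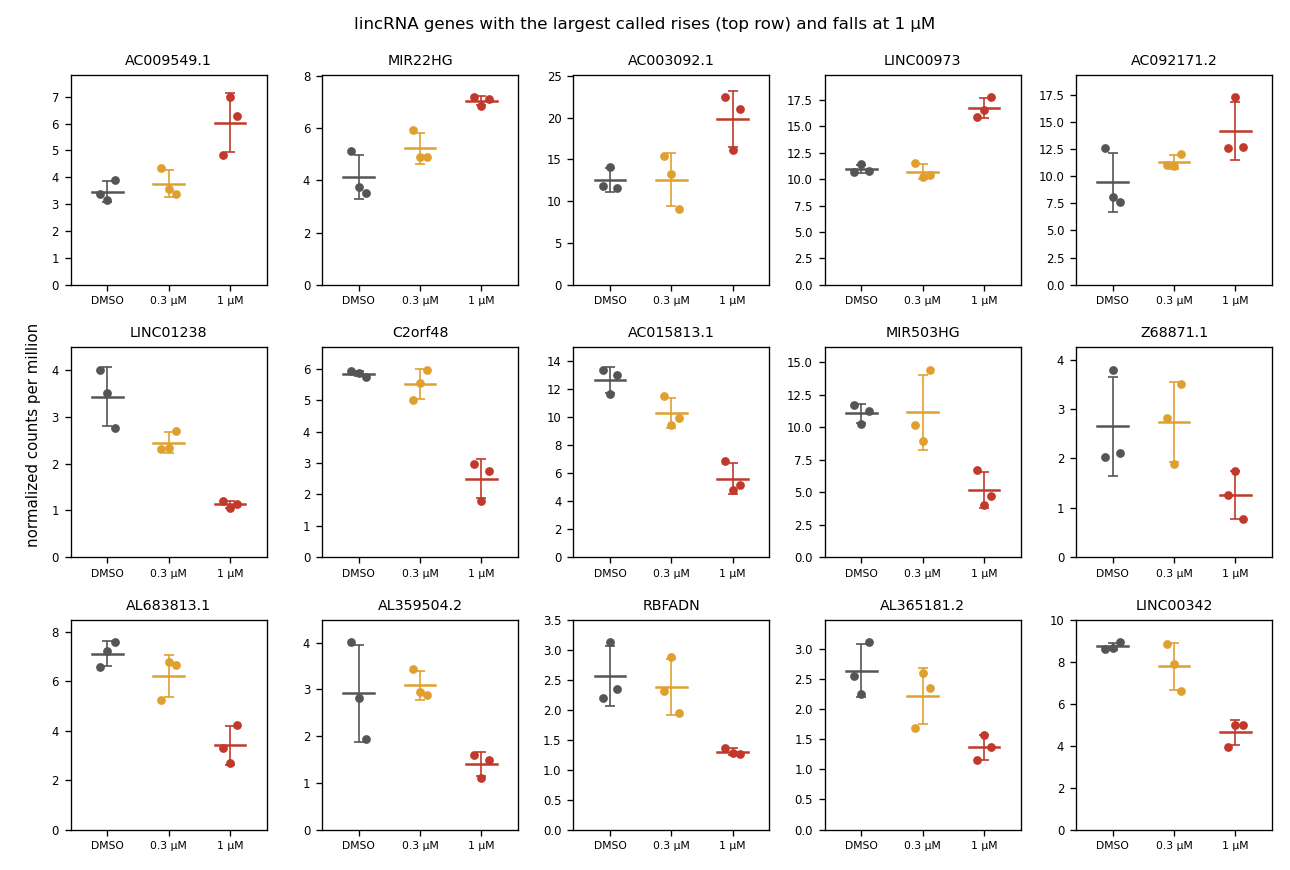
Normalized counts per 1e6 reads in each sample (points), with mean and SD of 3 samples (lines and bars), for the 5 lincRNA genes that rose at 1 μM (top row) and the 10 with the largest falls. In each panel the 1 μM samples lie wholly above or below the DMSO samples, closest for AC092171.2, and the 0.3 μM samples mostly lie near DMSO.

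Of the 13 microRNA hosts, 5 fell and 1 rose at 1 μM, or 38.5% and 7.69%, beside 9.95% and 7.67% of all genes tested. MIR22HG, host of miR-22 and a transcript known to respond to stress, was the one that rose. Its counts were 88, 68 and 60 in DMSO, 105, 88 and 85 at 0.3 μM, and 131, 118 and 119 at 1 μM. The 1 μM samples were above all others and the 0.3 μM mean lay between (log2 fold change 0.75 ± 0.17 SE, edgeR adjusted p = 0.00858). The step from 0.3 to 1 μM did not pass the test (0.42 ± 0.15 SE, edgeR adjusted p = 0.0805), and WDR81 on the other strand was at 0.25 (edgeR adjusted p = 0.156).

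MIR503HG lies on the X chromosome and contains miR-503, a microRNA linked to cell cycle arrest. Its counts were 201, 186 and 192 in DMSO, 180, 161 and 251 at 0.3 μM, and 122, 69 and 79 at 1 μM. All 1 μM samples were below the other 6, at 0.458 of the DMSO level (log2 fold change -1.13 ± 0.17 SE, edgeR adjusted p = 0.00052; against 0.3 μM -1.12 ± 0.20 SE, adjusted p = 0.00159). MUC20-OT1, which contains miR-570, had 559, 624 and 548 reads in DMSO, 535, 545 and 552 at 0.3 μM, and 410, 334 and 360 at 1 μM. This fall to 0.629 (log2 fold change -0.67 ± 0.08 SE, edgeR adjusted p = 0.000166) was -0.58 with SDHAP1 added. SDHAP1 was 99.2% identical over 1924 of the 4208 bases of the longest MUC20-OT1 transcript, so it matched a part only. AC016205.1 (MIR924HG in GENCODE 44) had 170, 180 and 201 reads in DMSO, 177, 172 and 167 at 0.3 μM, and 118, 106 and 127 at 1 μM. Its 1 μM samples too were below the other 6 (log2 fold change -0.67 ± 0.14 SE, edgeR adjusted p = 0.00428). MIR137HG, host of the neuronal miR-137, fell from 48, 45 and 40 reads in DMSO to 22, 20 and 30 at 1 μM, with 39, 37 and 36 at 0.3 μM. The groups did not overlap (log2 fold change -0.90 ± 0.27 SE, edgeR adjusted p = 0.0332), the adjusted p reached 0.111 without the second 1 μM sample, and DPYD overlaps it on the same strand with a log2 fold change of 0.07.

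Hosts of other widely studied microRNAs were not called. MIR222HG, whose miR-221 and miR-222 are known to be raised in thyroid carcinoma, had 76, 70 and 81 reads in DMSO, 52, 71 and 74 at 0.3 μM, and 88, 60 and 70 at 1 μM, with full overlap of the groups (log2 fold change -0.08 ± 0.19 SE). MIR3142HG, which contains miR-146a, was at 0.26 ± 0.13 SE, MIR155HG at -0.29 ± 0.26 SE and MIR4458HG at -0.03 ± 0.16 SE. LINC00472, host of miR-30a and miR-30c, had 44, 38 and 51 reads in DMSO, 45, 44 and 48 at 0.3 μM, and 36, 17 and 20 at 1 μM. Its groups at 0 and 1 μM did not overlap, but the test was missed (log2 fold change -0.89 ± 0.30 SE, edgeR adjusted p = 0.0535). Of the list on stress and signalling, 1 of 3 members, MIR22HG, rose (33.3%, beside 7.67% of all genes tested). MIR3142HG and MIR155HG were not called.

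**Figure D5:**
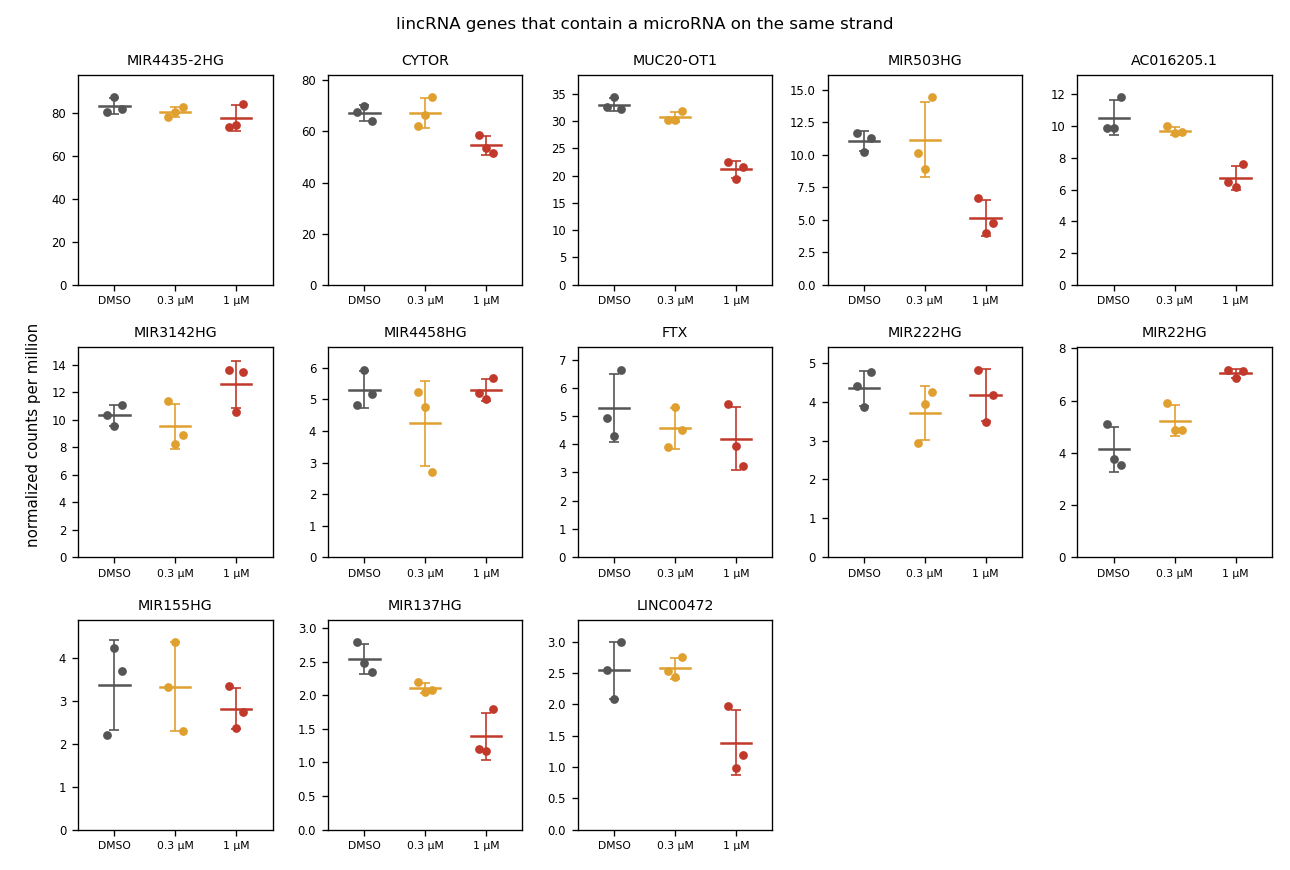
Normalized counts per 1e6 reads in each sample (points), with mean and SD of 3 samples, for the 13 lincRNA genes that contain a microRNA on their strand. MIR22HG is higher at 1 μM, MUC20-OT1, MIR503HG, AC016205.1, MIR137HG and CYTOR are lower, and the groups of MIR222HG, MIR155HG and FTX overlap.

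At 0.3 μM against DMSO none of the 200 passed the edgeR test, as was the case for all 15762 genes tested (0%), and DESeq2 called none of the 200 either. At an unadjusted p under 0.05, 14 lincRNAs (7%) were lower, against 2.13% of all genes, and 4 (2%) were higher, against 1.64%. The median log2 fold change was -0.07 and 133 of 200 were below 0. High DMSO counts chose these genes, and DMSO is the reference here. With the 200 chosen by their counts at 0.3 μM, 9 (4.5%) were lower and 4 (2%) higher at an unadjusted p under 0.05, the median was -0.04 and 120 were below 0. The lowest unadjusted p belonged to LINC01291, with 45, 60 and 51 reads in DMSO, 34, 31 and 27 at 0.3 μM, and 52, 51 and 60 at 1 μM. The 0.3 μM samples were below all others (log2 fold change -0.79 ± 0.24 SE against DMSO, edgeR adjusted p = 0.995), the level at 1 μM overlapped that in DMSO, and the step from 0.3 to 1 μM passed the test (0.85 ± 0.24 SE, edgeR adjusted p = 0.0292). That call was kept in 1 of 6 fits with a sample left out and was lost with DESeq2 (adjusted p = 0.0628). Next came AF127577.4 at 0.54 ± 0.19 SE and FLJ42351 at -0.62 ± 0.22 SE. LINC00623 was higher at 1 μM than at 0.3 μM (0.64 ± 0.19 SE, edgeR adjusted p = 0.0357; kept in 2 of 6 fits with a sample left out, DESeq2 adjusted p = 0.0562) with 74, 106 and 74 reads in DMSO, 62, 80 and 80 at 0.3 μM, and 146, 108 and 88 at 1 μM. The gene was not called at 1 μM against DMSO (0.41 ± 0.19 SE, edgeR adjusted p = 0.16).

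The calls at 1 μM against DMSO were also counted by position and structure, beside 9.95% lower and 7.67% higher over all genes tested. Of the 145 genes with several exons in GENCODE 44, 26 fell (17.9%) and 4 rose, and of the 49 with 1 exon, 9 fell (18.4%) and 1 rose. Among the 30 that overlap an expressed gene on the same strand, 11 (36.7%) were called and all of them fell; among the other 170, 25 fell (14.7%) and 5 rose. For 18 genes a stretch of at least 300 bases was at least 95% identical to another gene, and 5 of the 18 (27.8%) fell. The stretch could be a small part of the transcript, as for AL161431.1 (401 of 4205 bases). Genes that fell had a median length of 3677 bases and a median GC content of 44.9%, and genes that were not called 2645 bases and 47.1%. Read depth differed too, with a median DMSO mean count of 121.5 in genes that fell and 77.7 in genes not called. The nearest tested protein-coding gene started a median of 37232 bases away. Of the 36 lincRNAs that fell, 8 had a neighbour that fell and 2 had one that rose. Over all 200 pairs, the neighbour fell in 26 and rose in 20. A gene nearest to more than 1 lincRNA, such as KPNA2 or METTL22, was counted for each. Among the named falls, D2HGDH, 236104 bases from LINC01238, fell (log2 fold change -0.56, edgeR adjusted p = 0.00531). So did ANKRD36C, 175616 bases from LINC00342 (-1.06, edgeR adjusted p = 0.000309), and RBFA, 12542 bases from RBFADN (-0.54, edgeR adjusted p = 0.0186). For the other genes among the 10 largest falls the neighbour was not called. Examples are VEZF1, 6591 bases from AC015813.1 (0.13), PRKACB, 131 bases from AL359504.2 (0.19), and HPRT1, 86479 bases from MIR503HG (-0.03, edgeR adjusted p = 0.758). IRX5, which starts 1673 bases from CRNDE in the opposite direction, was at 0.26 ± 0.30 SE (edgeR adjusted p = 0.597). The log2 fold changes of lincRNA and neighbour had a Pearson correlation of 0.26 and a Spearman correlation of 0.18 over 200 pairs. All pairs share the same 6 libraries, and some share a neighbour.

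A RefSeq promoter was matched for 85 of the 200 genes. The ETS core CCGGAA, or TTCCGG, was present in 22 of these (25.9%), against 17.2% of all 35116 promoters of the same length, expressed or not. The longer form CCGGAAGT, or ACTTCCGG, which contains the core, was present in 5 (5.9%), against 4.1%. Of the 16 matched promoters of genes that fell, 3 held the core (HCG27, AC055713.1 and Z97832.2), and of the 68 of genes not called, 19 did. Median GC content was 51.3% in the former promoters and 62.8% in the latter. The calls of AC055713.1 and Z97832.2 were each kept in 1 of 6 fits with a sample left out and were lost with DESeq2 (adjusted p = 0.0905 and 0.111). The RefSeq start of Z97832.2 lies 34825 bases from the start in the count table. For MIR3142HG and LINC02167, also among the 22, that distance was 29657 and 3284 bases. Among the genes that fell without a core it was 111508 bases for KC6, 48323 for AC016205.1 and 20356 for RBFADN. At such distances the matched promoter may not be that of the counted RNA, which limits the 3 of 16. HCG27, a lincRNA gene of the histocompatibility region, had 181, 176 and 177 reads in DMSO, 153, 166 and 115 at 0.3 μM, and 109, 108 and 95 at 1 μM. The groups did not overlap and were ordered by dose (1 μM against DMSO log2 fold change -0.80 ± 0.13 SE, edgeR adjusted p = 0.000903), whereas NORAD with its 4 cores overlapped fully. A motif match describes the sequence only.

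The genes that make, trim and degrade such transcripts were called in both directions at 1 μM, except those for microRNA processing. Of 22 genes of the nuclear exosome and its adaptors, 1 rose and 2 fell: EXOSC4, an exosome subunit, by 0.48 ± 0.12 SE (edgeR adjusted p = 0.0122), PABPN1, the nuclear poly(A)-binding protein, by -0.42 ± 0.09 SE (edgeR adjusted p = 0.00438) and ZFC3H1, which directs polyadenylated RNA to the exosome, by -0.27 ± 0.08 SE (edgeR adjusted p = 0.0256). In the 22 genes for cleavage, polyadenylation and termination, the poly(A) polymerase PAPOLA rose by 0.17 and CPSF6 fell by 0.29 on the log2 scale. Integrator, the complex that ends many non-coding transcripts, had 3 lower and 1 higher of 17. INTS5 rose by 0.61 ± 0.13 SE (edgeR adjusted p = 0.00482), and NABP1, a partner of the complex, had a log2 fold change of -0.54 ± 0.09 SE (edgeR adjusted p = 0.00136), beside smaller falls of INTS3 and INTS11. Of 10 genes for microRNA processing, DICER1 fell by 0.34 and DGCR8 by 0.26 on the log2 scale. None rose in the edgeR test or at an unadjusted p under 0.05. Over all genes tested 9.95% were lower and 7.67% higher. A list of 10 genes is too short to set its directions apart from these shares. The share of these 4 lists that was called ranged from 9.09% to 23.5%, around the 17.6% of all genes.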

How the data were processed

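RNA was analysed from KHM-5M cells in 3 groups of 3 samples. Per the labels, polyadenylated RNA was selected from total RNA and random-primed into libraries. The submitters' processing notes name HISAT2 2.0.5, featureCounts 1.5.0-p3 and DESeq2 1.20.0, while the methods name HTseq for counting. The methods describe a strand-specific kit and 2 biological replicates, and the labels another kit and 3 samples; the strand setting is not given in the sources used here. The authors deposited a whole-number count per gene and sample without normalization, FPKM values scaled by gene length and library size, and their own fold changes and p-values, which were not used.

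The 200 genes, the gene lists and the tests were chosen with earlier results of these data known. Ties at rank 200 were broken by gene identifier. Tests used edgeR 4.0.16 (quasi-likelihood, TMM factors, filterByExpr with a minimum count of 10, the 2 groups compared only, Benjamini-Hochberg adjustment over all genes tested) under R 4.3.3; DESeq2 1.42.0 was run as an alternative. Values called normalized are counts per 1e6 reads with TMM factors over the 9 samples. Other steps used Python 3.11.15 with pandas 2.3.3. On simulated counts of 15625 genes for 1 μM against DMSO, edgeR recovered 90 of 100 genes changed by 1 on the log2 scale. Of 100 genes changed by 0.6 it recovered 33, and there were 7 false calls. The simulation gave every gene the same spread beyond counting error and drew the changed genes from all gene classes. These figures therefore do not describe the 200 lincRNAs. Named genes were the 10 with most reads in DMSO, up to 10 largest called rises and falls at 1 μM against DMSO and 5 against 0.3 μM with groups not overlapping and a mean of at least 1 count per 1e6 reads, the 3 lowest p at 0.3 μM, and the members of the lists; other genes were chosen after their values were seen. Coordinates are those of the deposited table (GRCh38). Overlaps between genes were taken from the start and end of whole genes in that table, so an overlap may lie in an intron only. A gene counted as expressed for an overlap had a mean of at least 10 reads over the 9 samples. Exon numbers and GC content were taken from GENCODE 44, in which 194 of the 200 genes were found at overlapping positions. Near-identical stretches were found with blastn 2.17.0 from the longest GENCODE 44 transcript of each gene. Whether replicate numbers pair the samples is not known, and the main tests did not pair them, as given under the dependence on processing.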

Additional observations from a re-analysis of the deposited data

How the results depend on the processing

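The counts of called lincRNAs kept their direction, more lower than higher, in each alternative run that called any. Against the 41 called at 1 μM relative to DMSO, DESeq2 called 27 (5 higher, 22 lower) and an unadjusted p 65. A 2-fold cutoff called 8, and genes with no same-strand overlap 23 of 136. At an unadjusted p, 29% of the 200 were lower and 3.5% higher, beside 16.7% and 15.2% of all genes tested. For the other alternatives the share of all genes was not counted. Leaving out 1 sample gave 25 to 40, with 25 without the second and 27 without the third 1 μM sample, and 19 of the 41 were called in every such fit. For the 32 over 1.5-fold, the values were 8 with a 2-fold cutoff, 19 among the 100 genes with most reads and 18 without same-strand overlap, and 20 to 33 with a sample left out. For the 27 called at 1 μM against 0.3 μM, they were 56 at an unadjusted p, 6 with a 2-fold cutoff and 14 without same-strand overlap, and 15 to 24 with a sample left out, of which 13 were called in every fit. The 56 made up 20.5% lower and 7.5% higher of the 200, beside 14.3% and 13.3% of all genes. At 0.3 μM against DMSO 18 passed an unadjusted p, 7% lower and 2% higher, beside 2.13% and 1.64%. Samples of the same number had correlations of -0.0218 to 0.0816, and samples of different numbers -0.0691 to 0.0377. Between 0.3 μM and DMSO each same-number value lay above every different-number value. Weak correlations cannot show whether samples were handled in pairs, and the labels do not say. A fit with the replicate number as a block gave 37, 28 and 29 calls in the order above and 0 at 0.3 μM. Among named genes that fit ended the calls of AC092171.2 (edgeR adjusted p = 0.0517) and MIR137HG (0.0539). Genes counted after the data were seen stayed near the main count. These were genes without a near-identical stretch in another gene (36 of 182) or without an expressed gene on the same strand (30 of 170). The 200 genes chosen by 1 μM counts gave 31 calls (26 lower) and a median of -0.05 in place of -0.16; in the other alternatives the median ranged from -0.14 to -0.18 and the share ratio from 0.883 to 0.93. For named genes, 437 alternative values kept direction and call, 29 lost the call, 3 gained it and 12 changed sign. The log2 fold changes that changed sign with a sample left out ranged from -0.071 to 0.058 for NORAD, -0.027 to 0.029 for LINC00958, -0.054 to 0.141 for LINC01291, -0.096 to 0.066 for MIR4458HG, -0.196 to 0.03 for MIR222HG and -0.001 to 0.167 for PVT1; LINC00958 was also at 0.009 with a minimum count of 1 and 0.008 with DESeq2. None of these 6 was called. The cause of these differences was not tested, and low counts limit the genes ranked after 100.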

Other observations

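Outside the named genes, LINC00957 and AC093297.2 were called at 1 μM against 0.3 μM and at neither dose against DMSO. LINC00957 had 71, 43 and 60 reads in DMSO, 83, 90 and 85 at 0.3 μM, and 71, 52 and 43 at 1 μM, so that the 0.3 μM samples were above the other 6 by normalized value. It was lower at 1 μM than at 0.3 μM (log2 fold change -0.62 ± 0.20 SE, edgeR adjusted p = 0.0498), a call kept in 1 of 6 fits with a sample left out and lost with DESeq2 (adjusted p = 0.101). AC093297.2 had 121, 119 and 122 reads in DMSO, 138, 175 and 155 at 0.3 μM, and 119, 85 and 119 at 1 μM, and was likewise lower at 1 μM than at 0.3 μM (-0.51 ± 0.16 SE, edgeR adjusted p = 0.043), kept in 2 of 6 such fits and lost with DESeq2 (adjusted p = 0.0742). Both were chosen after their values were seen.

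Calls at 1 μM against DMSO were also counted by the form of the name, beside 9.95% lower and 7.67% higher of all genes tested. Genes named for a lincRNA number, 57 of the 200, had 8 lower (14%) and 1 higher (1.75%), with a median log2 fold change of -0.02. The 83 genes named only after a clone had 18 lower (21.7%) and 3 higher (3.61%), with a median of -0.27. The difference between these name groups was not tested. Of the 37 lincRNAs that start within 1000 bases of an expressed gene in the opposite direction, 3 (8.11%) were called lower and none higher. Of all genes tested, 9.95% were lower and 7.67% higher. At an unadjusted p under 0.05, 10 of the 37 (27%) were lower, against 16.7% of all genes. None was higher at that threshold, against 15.2% of all genes. In none of the 3 pairs with a call was the neighbour called. LINC01089, which starts 274 bases from SETD1B, was one of them, with a log2 fold change of -0.81 ± 0.15 SE (edgeR adjusted p = 0.00234) beside -0.01 in SETD1B. LINC01355 had 256, 269 and 270 reads in DMSO, 273, 265 and 240 at 0.3 μM, and 183, 118 and 127 at 1 μM, a log2 fold change of -0.92 ± 0.14 SE (edgeR adjusted p = 0.000478) while the neighbour HNRNPR was at -0.10.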
